A study of Mus musculus with 6 samples.

Results

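The genes described here are 35 genes of glycolysis and of the cellular response to low oxygen, measured by RNA sequencing in mouse ovarian surface epithelial (MOSE) cells. They were taken from a fixed list of symbols and matched to Ensembl identifiers, and all 35 were among the 25006 identifiers counted in the 6 libraries. Of these, 21 act between glucose uptake and lactate export, and 14 are hypoxia-inducible factors (HIF), oxygen sensors, pyruvate dehydrogenase kinases or other HIF target genes. MOSE-PAX8 is a stable line of these cells that overexpresses PAX8, a paired-box transcription factor needed for the thyroid, kidney and Mullerian ducts; the reference line is MOSE-NEO. Each line gave 3 libraries, both were kept under 0.05 mg/mL G418, a selection drug, and no other treatment is listed. The labels name 1 cell line per group, so a difference between the groups is a difference between these lines.

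Glycolysis splits glucose into pyruvate, which lactate dehydrogenase turns into lactate or which enters the mitochondria through pyruvate dehydrogenase. Pyruvate dehydrogenase kinases close that entry by phosphorylating the enzyme. When oxygen is low, prolyl hydroxylases of the EGLN family stop marking HIF-1alpha and HIF-2alpha for destruction. HIF then binds short elements with a core of ACGTG or GCGTG. It switches on glucose transporters, most glycolytic enzymes, some of the kinases and genes such as Bnip3 and Car9. HIF-1alpha is controlled mainly at the protein level, which these counts do not show.

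Library totals ranged from 23623762 to 36367825 counts. The counts of Pax8 itself were 0, 1 and 1 for MOSE-NEO 1 to 3, against 2570, 2973 and 3544 for MOSE-PAX8 1 to 3. The share of counts from lincRNA genes (long intergenic noncoding RNA) was 0.317% in MOSE-NEO 1 and 0.33% in MOSE-PAX8 2, against 0.146% to 0.195% in the other libraries. Of 13 markers of the ovarian surface epithelium, 9 had at least 10 CPM (the count scaled to library size with TMM factors) in every library, while Cdh1, E-cadherin, had at most 2 counts in any. Krt8 and Krt19 were also low, at no more than 1.08 and 0.478 CPM. The summed level of the list was 13864 to 15476 CPM in MOSE-NEO and 8977 to 10413 CPM in MOSE-PAX8. Of its 12 tested genes 7 fell and 2 rose at an edgeR adjusted p below 0.05 (75%, against 33.9% of all tested genes). Their log2 fold changes ran from -11.6 to 1.35, the highest being that of Cdh2, while Krt7 and Wt1 fell 1.84-fold and 1.63-fold. Markers of leukocytes summed to 2.04 to 3.65 and 4.92 to 6.57 CPM with Adgre1 at 0, those of endothelium to under 1 CPM with Cdh5 at 0, and those of granulosa and theca cells to 27.3 to 32.3 and 24.4 to 26.1 CPM with Fshr and Cyp19a1 at 0. Within these lists Ptprc, the leukocyte antigen CD45, rose from 1 count over MOSE-NEO to 196 over MOSE-PAX8 (edgeR adjusted p = 0.000103). Foxl2, a granulosa transcription factor, rose from 1 to 182 counts (edgeR adjusted p = 0.000117), while Inha, which made up most of its list's sum, fell from a mean of 30.3 to 23.2 CPM. The 6 fibroblast markers summed to 19902 to 23255 and 12399.7 to 13186 CPM, nearly all from Col3a1, Col1a1 and Dcn, while Pdgfra, Pdgfrb and Lum were under 0.5 CPM in every library. The part of these marker differences in the results below was not tested.

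Genes between glucose and lactate were more often higher than lower in MOSE-PAX8, and the kinases and other HIF members more often lower. Of the 35 genes 32 had enough counts to be tested, and 16 of these passed the quasi-likelihood test of edgeR at an adjusted p below 0.05, 8 higher and 8 lower in MOSE-PAX8. Over all 12313 genes tested 33.9% passed, 17.9% higher and 16.1% lower. Among the 21 genes from glucose transporters to lactate export, 7 rose (Slc2a1, Hk1, Hk2, Pfkp, Pfkl, Pgam1 and Ldha) and 2 fell (Aldoc and Ldhb), with a median log2 fold change of 0.24. Among the 11 tested of the other 14 members, 1 rose (Egln1) and 6 fell (Egln3, Pdk1, Pdk2, Pdk3, P4ha1 and P4ha2), with a median of -0.39. The median over all tested genes was 0.01. The libraries of the lines did not overlap for 17 of the 32 members, against 47.6% of all tested genes, and 4 members passed with a change of at least 2-fold (Pfkp, Aldoc, Pdk1 and Egln3), against 9.22% of all tested genes. The number that rose was 5, 4 and 5 without MOSE-NEO replicate 1, MOSE-NEO replicate 2 or MOSE-PAX8 replicate 3, and 5 with the local chromosome median removed, which is the running median log2 fold change of the tested genes around each gene. The number that fell was 5 without MOSE-PAX8 replicate 3. Against a fold of 1.5, Hk1 alone was called higher and Aldoc, Pdk1 and P4ha2 lower.

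**Figure D1:**
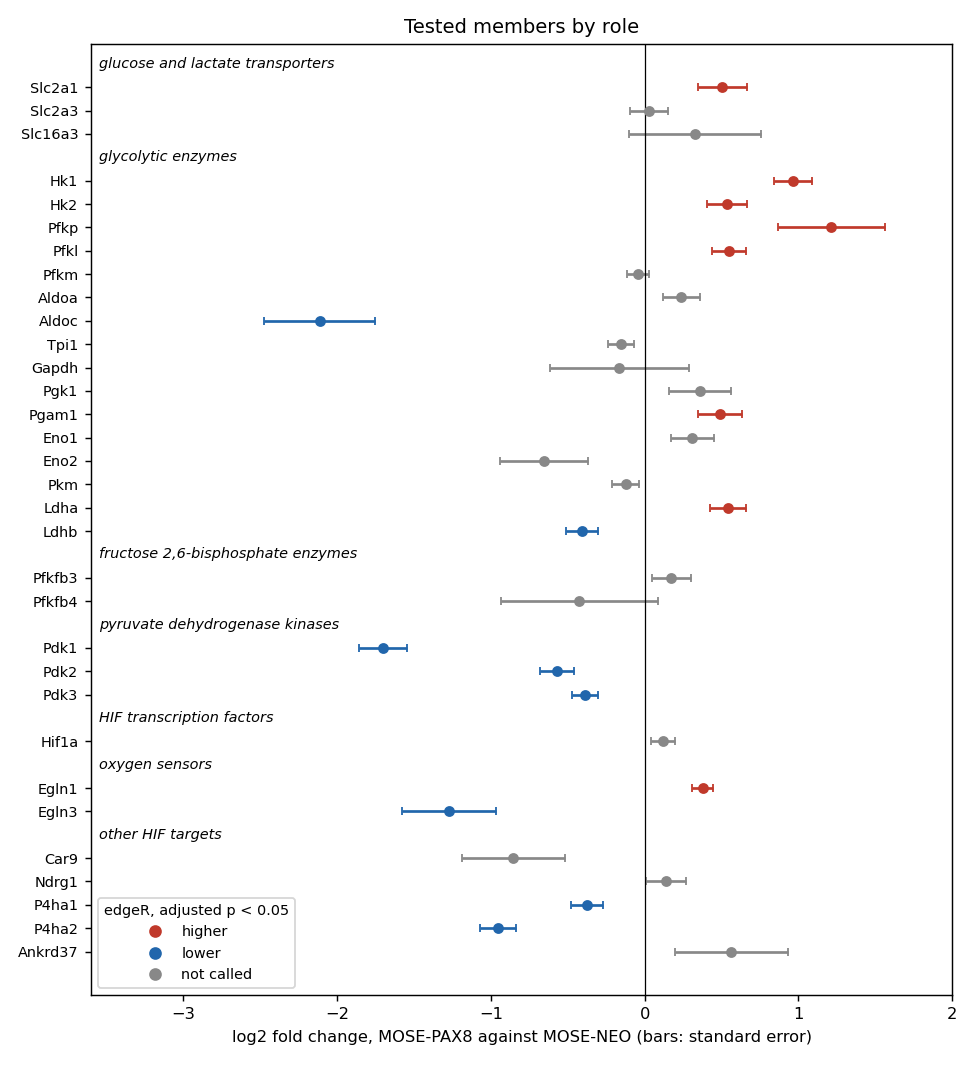
Log2 fold change of MOSE-PAX8 against MOSE-NEO (x axis) for the 32 tested genes grouped by role (y axis), with bars of 1 standard error; red marks genes called higher, blue lower and grey not called by edgeR at an adjusted p below 0.05. All 3 pyruvate dehydrogenase kinases lie to the left of 0 and both hexokinases to the right, and Aldoc (-2.11) and Pfkp (1.21) lie at the ends.

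**Figure D2:**
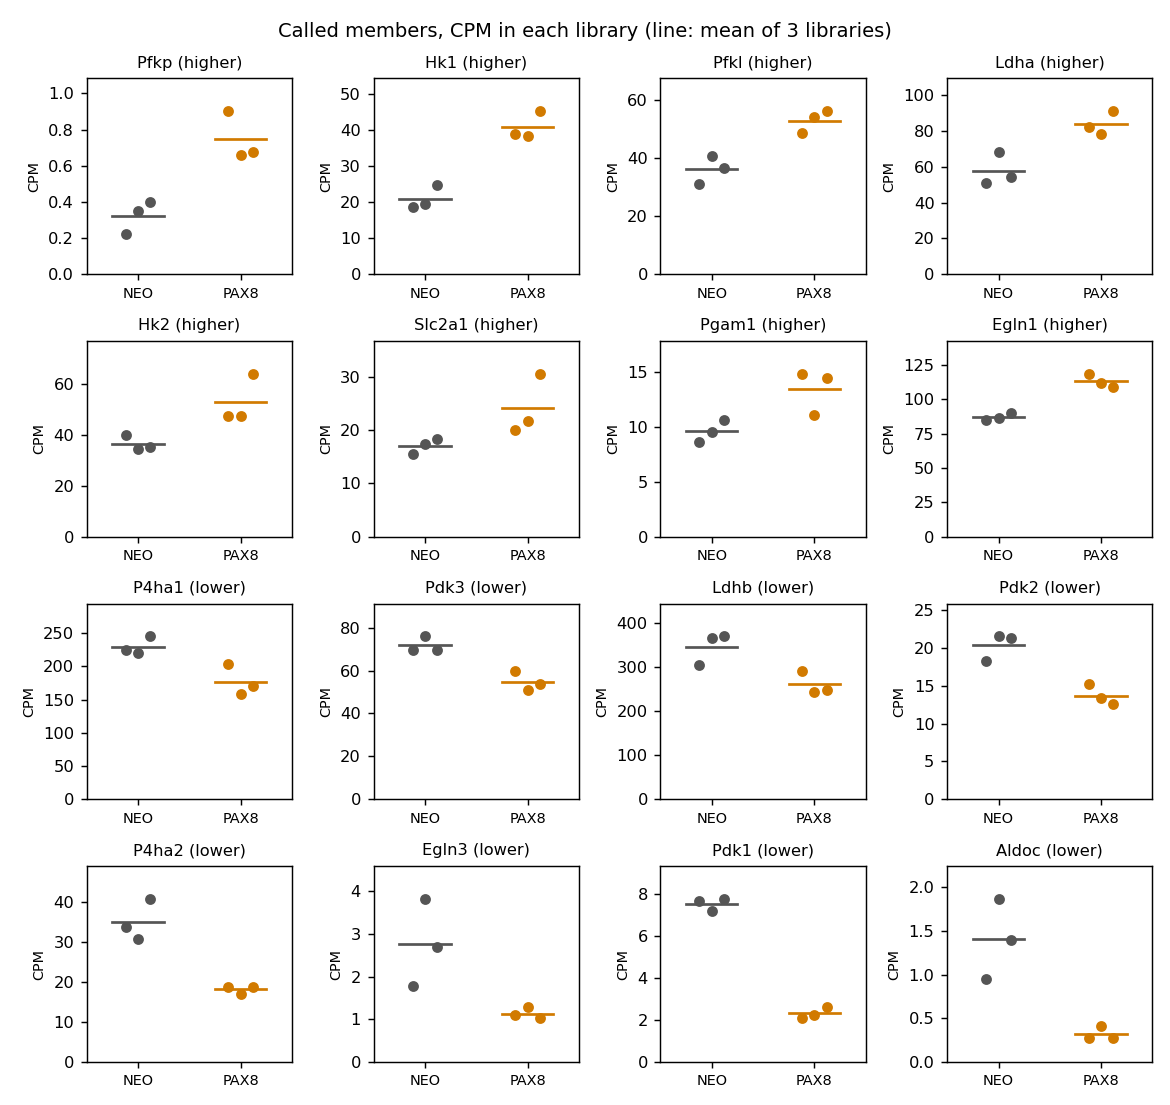
CPM (y axis, from 0) in each library of MOSE-NEO (grey) and MOSE-PAX8 (orange) for the 16 called genes, 8 higher and 8 lower, with a line at the mean of 3 libraries. In every panel all 3 libraries of a line lie on the same side of the other 3.

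At the cell surface, the glucose transporter GLUT1 gene rose slightly and that of GLUT3 did not pass the test. Slc2a1 (GLUT1) had 15.5, 17.3 and 18.3 CPM in MOSE-NEO libraries 1 to 3 and 20.1, 21.7 and 30.7 CPM in MOSE-PAX8 libraries 1 to 3. The MOSE-PAX8 library 3 stood above the other two, and the lines did not overlap. This gave a log2 fold change of 0.50 ± 0.16 (SE) at an edgeR adjusted p of 0.0395. Leaving out MOSE-NEO replicate 1, MOSE-NEO replicate 2 or MOSE-PAX8 replicate 3 ended the call (edgeR adjusted p = 0.12, 0.0956 and 0.106), as did limma-voom (0.052), removal of the local median (0.0828) and a fit without both lincRNA-rich libraries (0.113). The gene lies at chr4:119108711-119137983 in mm10, the build of all coordinates here. Slc2a3 (GLUT3) had 32.3 ± 4.74 and 33 ± 3.31 CPM (SD, n = 3). Slc16a3, which encodes the lactate exporter MCT4, was low, at 0.398 to 0.609 CPM in MOSE-NEO and 0.438 to 1.1 CPM in MOSE-PAX8.

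Another lactate carrier was far more abundant. Slc16a1, the gene of the monocarboxylate transporter MCT1, fell from 665, 663 and 788 CPM to 339, 290 and 297 CPM, a log2 fold change of -1.19 ± 0.1 (SE) at an edgeR adjusted p of 7.64e-05. It lies on a stretch of chromosome 3 that is lower in MOSE-PAX8 as a whole, and with the local median removed the log2 fold change was -0.88. Bsg, which encodes basigin, the chaperone that carries MCT1 and MCT4 to the membrane, rose from 246 ± 26 to 364 ± 36 CPM (SD, n = 3), with an edgeR adjusted p of 0.00415, or 0.0756 with the local chromosome median removed. The intracellular sugar transporter gene Slc2a8 fell 1.36-fold. Of 18 further genes of sugar uptake and glycolysis 12 were tested, 2 of them rose and 2 fell (33.3%, against 33.9% of all tested genes).

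The hexokinases, which trap glucose in the cell as glucose 6-phosphate, both rose. Hk1 had 18.6, 19.4 and 24.7 CPM in MOSE-NEO and 38.8, 38.4 and 45.3 CPM in MOSE-PAX8. This was a 1.95-fold rise with no overlap (log2 fold change 0.96 ± 0.12 SE, edgeR adjusted p = 0.000599), and it kept its call in all 16 alternative settings. Hk2 went from 39.9, 34.2 and 35.1 CPM to 47.1, 47.2 and 63.9 CPM, a 1.45-fold rise in which MOSE-PAX8 library 3 was the highest (edgeR adjusted p = 0.0138); when MOSE-NEO replicate 2 was left out the adjusted p was 0.0511. Hk1 lies at chr10:62268855-62379908 and Hk2 at chr6:82725025-82774454. Hkdc1, a hexokinase relative chosen here after its values were seen, summed to 6 counts over MOSE-NEO and 90 over MOSE-PAX8 (edgeR adjusted p = 0.000776).

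Phosphofructokinase, the enzyme of the committed step, is built from muscle, liver and platelet subunits, and the liver and platelet genes rose. Pfkl, the liver subunit, had 31.2, 41 and 36.7 CPM in MOSE-NEO and 48.7, 54.1 and 56.3 CPM in MOSE-PAX8, a rise of 1.46-fold (edgeR adjusted p = 0.00537). Pfkm, the muscle subunit and per length the most abundant of the 3 genes, was at 79.9 ± 4.04 and 77.5 ± 3.73 CPM (SD, n = 3). Pfkp, the platelet subunit, was called higher on 7 to 12 counts per MOSE-NEO library and 21 to 33 per MOSE-PAX8 library (log2 fold change 1.21 ± 0.35 SE, edgeR adjusted p = 0.0257). That call was lost with DESeq2 (adjusted p = 0.106), without both lincRNA-rich libraries (0.0838), and on leaving out MOSE-NEO 1 or 2 (0.0895 and 0.0685) or MOSE-PAX8 1 or 3 (0.091 and 0.0661). It was also lost with the replicate number as a block (0.0629). Pfkl lies at chr10:77986947-78010083 and Pfkp at chr13:6579768-6648777. Pfkfb3 and Pfkfb4 make and break down fructose 2,6-bisphosphate, the main activator of phosphofructokinase. Neither passed: Pfkfb3 had a log2 fold change of 0.17 ± 0.13 (SE) at 37.2 CPM in MOSE-NEO, and Pfkfb4 was under 0.63 CPM in every library.

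From aldolase to pyruvate kinase most genes did not pass, as was so over all tested genes, of which 33.9% passed. The ubiquitous aldolase gene Aldoa had 232, 258 and 289 CPM in MOSE-NEO and 333, 258 and 328 CPM in MOSE-PAX8, which did not pass (edgeR adjusted p = 0.171; 0.0369 when MOSE-PAX8 replicate 2 was left out), and it lies on chromosome 7, where the local median was itself 0.26. Aldoc, the brain form, fell 4.33-fold on few counts, from 30, 43 and 42 to 10, 13 and 9, and kept its call in all 16 alternative settings (log2 fold change -2.11 ± 0.36 SE, edgeR adjusted p = 0.00233). Aldoc lies at chr11:78322968-78327781 and Pgam1 at chr19:41911923-41918660. Tpi1 (triose phosphate isomerase) and Pkm (pyruvate kinase) had log2 fold changes of -0.15 ± 0.09 and -0.12 ± 0.09 (SE). Pgam1, phosphoglycerate mutase, rose from 8.61, 9.48 and 10.6 CPM to 14.8, 11.1 and 14.5 CPM (edgeR adjusted p = 0.0284). Removing the local median ended the call (0.178), and so did leaving out MOSE-NEO 1 or 2 (0.0897 and 0.0819) or MOSE-PAX8 1 or 3 (0.0989 and 0.104).

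Eno2, the neuronal enolase gene, had 40.3, 22 and 21.4 CPM in MOSE-NEO and 12.7, 23.9 and 16.7 CPM in MOSE-PAX8. The lines overlapped and the test was not passed (log2 fold change -0.66 ± 0.29 SE, edgeR adjusted p = 0.117). In both lines the library with the most lincRNA, MOSE-NEO 1 and MOSE-PAX8 2, was the highest. The adjusted p was 0.0299 without both of these libraries and 0.0316 without MOSE-PAX8 replicate 2. Gapdh showed the same order, with 9.5, 5.22 and 3.92 CPM and 2.65, 9.18 and 4.9 CPM, and did not pass (log2 fold change -0.17 ± 0.45 SE, edgeR adjusted p = 0.814). These libraries were highest in both lines for 4 of the 32 tested members (Gapdh, Eno2, Pfkfb4 and Car9) and for 23.9% of all tested genes.

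Transcripts of several of these enzymes share sequence with other annotated genes, many of them pseudogenes, so their counts are uncertain. Words of 50 bases from the principal transcript were looked up in all other annotated transcripts. Of the words of Gapdh 82.5% recurred in another gene, for Eno1 72.2%, for Pgk1 68% and for Pgam1 41.5%, against none for 16 of the 35 members. Words of Gapdh were found in 213 annotated pseudogenes. Per kb of exon, Gapdh had 1.5 CPM in MOSE-NEO, Pgk1 1.67, Eno1 1.94 and Pgam1 4.83, while Aldoa had 89.3 ± 9.70, Tpi1 81.9 ± 4.63 and Pkm 123 (SD, n = 3), of which Aldoa and Tpi1 did not differ beyond their spread. Pgk1 and Eno1 did not pass the test (log2 fold changes of 0.36 ± 0.2 and 0.31 ± 0.14 SE). The handling of reads with several alignments is not given in the sources used here, and its part in these levels was not tested. Levels per kb use exon lengths merged over transcripts, which exceed the principal transcript unevenly (Gapdh 4133 against 1420 bases, Ldhb 1570 against 1304). In MOSE-NEO, Aldoc, with no shared word, had 0.431 CPM per kb, and Pfkp, with 17.1% shared, had 0.0241. Hk1, also with no shared word, had 2.45 over a merged length of 8532 bases against 3851. What sets the levels of these genes was not tested.

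**Figure D3:**
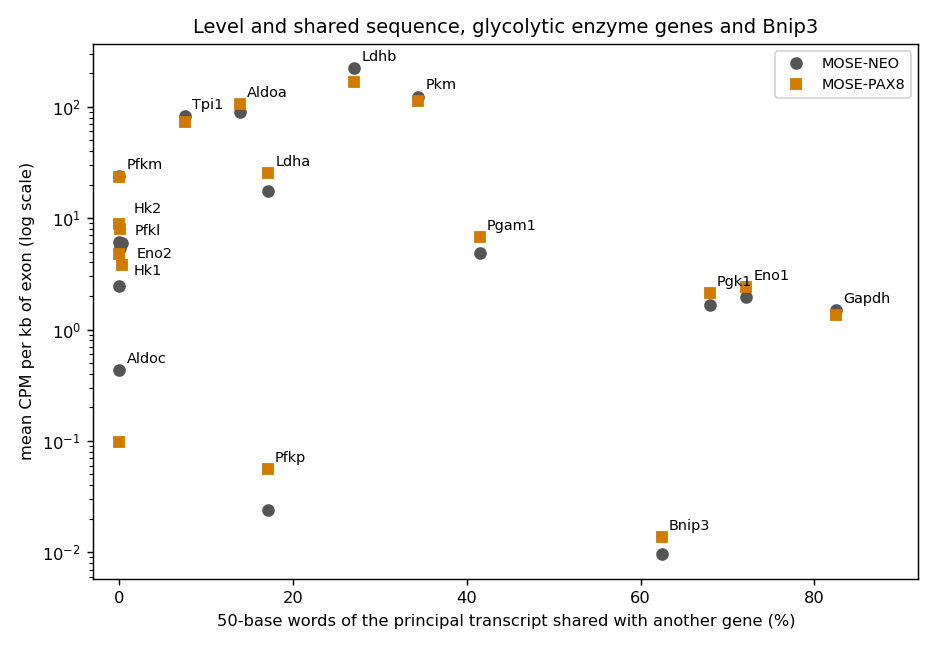
Mean CPM per kb of exon (y axis, log scale; circles MOSE-NEO, squares MOSE-PAX8, 3 libraries each) against the percentage of 50-base words of the principal transcript found in another annotated gene (x axis), for the 16 glycolytic enzyme genes and Bnip3. Gapdh, Eno1 and Pgk1 lie at the right, at 68% or more, and under 3 CPM per kb, while Ldhb, Pkm, Aldoa and Tpi1 lie left of 35% and above 70 CPM per kb. Aldoc, at 0%, and Pfkp, at 17.1%, are also under 3 CPM per kb in both lines, as is Hk1, at 0%, in MOSE-NEO.

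The lactate dehydrogenase genes moved in opposite directions. Ldha encodes the subunit that favours lactate formation and had 50.9, 68.2 and 54.1 CPM in MOSE-NEO and 82.3, 78.5 and 91.2 CPM in MOSE-PAX8, with no overlap (1.46-fold, edgeR adjusted p = 0.00772). Ldhb encodes the subunit that favours pyruvate and went from 305, 366 and 371 CPM to 291, 245 and 249.6 CPM, where the highest MOSE-PAX8 library lay just under the lowest of MOSE-NEO (1.33-fold lower, edgeR adjusted p = 0.0181). Ldha lies on chromosome 7 with a local median of 0.2, and with that median removed its adjusted p was 0.0618. For Ldhb the call ended on leaving out MOSE-NEO 2 or 3 (0.0625 and 0.0546) or MOSE-PAX8 3 (0.0785). Ldha lies at chr7:46841475-46855627 and Ldhb at chr6:142490249-142507957. The sequences just before the starts of this pair are shown because Ldha is a textbook HIF target and the genes moved apart; they are from RefSeq on GRCm38.p6, 5′ to 3′ along the gene, and capitals mark ACGTG or GCGTG on either strand. The Ldha stretch shown, before the first of its RefSeq starts, is chr7:46845654-46845803, plus strand, and the Ldhb stretch chr6:142507958-142508107, minus strand.
Ldha: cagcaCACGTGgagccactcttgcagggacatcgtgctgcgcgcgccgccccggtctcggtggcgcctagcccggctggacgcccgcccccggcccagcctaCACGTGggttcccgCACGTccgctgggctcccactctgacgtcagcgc
Ldhb: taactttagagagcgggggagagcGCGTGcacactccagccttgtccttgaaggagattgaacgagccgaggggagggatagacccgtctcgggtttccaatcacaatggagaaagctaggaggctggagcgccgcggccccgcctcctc
This Ldha stretch held 5 matches of ACGTG, of which 4 come as the palindrome CACGTG read on both strands, and no GCGTG. The whole window also held 2 GCGTG, both after the start. The Ldhb stretch held 1 GCGTG and no ACGTG. A second RefSeq start of Ldha is preceded by a stretch of the same length with 1 GCGTG and no ACGTG, as at Ldhb.

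All 3 tested pyruvate dehydrogenase kinase genes fell, where 16.1% of all tested genes were called lower. Pdk1 had the smallest adjusted p of the 32 tested members and fell from 7.66, 7.17 and 7.77 CPM in MOSE-NEO to 2.11, 2.23 and 2.62 CPM in MOSE-PAX8. Each MOSE-PAX8 library was well below the lowest of MOSE-NEO, and the fold was 3.25 (log2 fold change -1.70 ± 0.15 SE, edgeR adjusted p = 9.3e-05). Pdk2 had 18.3, 21.6 and 21.3 CPM against 15.2, 13.4 and 12.6 CPM (1.49-fold lower, edgeR adjusted p = 0.00413). Pdk3 had 69.6, 76 and 69.7 CPM against 59.6, 50.9 and 53.8 CPM (1.31-fold lower, edgeR adjusted p = 0.00735). In mm10 these genes lie at chr2:71873224-71903858, chr11:95026258-95041354 and chrX:93764607-93832201. Pdk4, outside the members, had 2 counts in all of MOSE-NEO and none in MOSE-PAX8. Per kb of exon Pdk3 made up most of the 3 kinases, 79.1% ± 1.11 in MOSE-NEO and 82.2% ± 0.735 in MOSE-PAX8 (SD, n = 3), and Pdk1 2.74% ± 0.24 and 1.15% ± 0.188. Pdk1 kept its call in all 16 alternative settings, and Pdk2 and Pdk3 in all but the test against a fold of 1.5.

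The stretches before the starts of the 3 kinase genes are shown because the genes fell together, with the same source and marks as above. They are chr2:71873074-71873223, plus strand; chr11:95041372-95041521, minus strand; and chrX:93832202-93832351, minus strand, the last ending 52 bases before the RefSeq start because an annotated exon follows.
Pdk1: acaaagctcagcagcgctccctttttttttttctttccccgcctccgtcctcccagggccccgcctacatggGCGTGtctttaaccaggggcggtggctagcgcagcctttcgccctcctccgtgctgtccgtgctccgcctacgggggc
Pdk2: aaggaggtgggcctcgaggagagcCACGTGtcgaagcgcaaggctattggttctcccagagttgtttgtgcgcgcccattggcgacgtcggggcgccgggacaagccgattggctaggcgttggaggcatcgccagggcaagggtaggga
Pdk3: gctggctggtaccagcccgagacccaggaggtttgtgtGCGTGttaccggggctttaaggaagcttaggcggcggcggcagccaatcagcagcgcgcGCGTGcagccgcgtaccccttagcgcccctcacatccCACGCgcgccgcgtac
In these stretches Pdk1 held 1 GCGTG, Pdk2 a CACGTG palindrome that counts as 2 matches of ACGTG, and Pdk3 3 matches of GCGTG. The whole Pdk1 window held 2 GCGTG. The second begins 2 bases before the RefSeq start and is cut off by the end of the stretch. The whole Pdk3 window also held 1 ACGTG, which begins 53 bases before the RefSeq start and is cut off by the end of the stretch. A second RefSeq start of Pdk1 and one of Pdk2 had no match in their windows.

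Around the same step, the phosphatase gene Pdp1, whose product reverses the kinases, rose from 5.34, 5.96 and 7.44 CPM to 12, 10.3 and 12.6 CPM (1.87-fold, edgeR adjusted p = 0.00239). Pcx, pyruvate carboxylase, which makes oxaloacetate from pyruvate, rose 1.56-fold from 20.2 ± 0.686 to 31.4 ± 1.33 CPM (SD, n = 3). Pdhb, a subunit of pyruvate dehydrogenase on the lowered chromosome 14, fell 1.37-fold, and its adjusted p was 1 with the local median removed. Of 11 genes of pyruvate entry and pyruvate dehydrogenase 10 were tested, 2 rose and 1 fell (30%, against 33.9% of all tested genes).

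The HIF genes themselves gave no call. Hif1a had 401, 438 and 402 CPM in MOSE-NEO and 460, 427 and 459 CPM in MOSE-PAX8, overlapping between the lines (log2 fold change 0.12 ± 0.08 SE, edgeR adjusted p = 0.297). Epas1, the gene of HIF-2alpha, summed to 1 count over MOSE-NEO and 2 over MOSE-PAX8, so no fold is given. For a library with 0 counts the upper limit is that of 3 counts, 0.0825 to 0.127 CPM of the library total, which covers counting error only. Arnt, which encodes the shared partner of both factors, fell 1.52-fold from 163 ± 4.14 to 107 ± 1.55 CPM (SD, n = 3). It lies in the lowered part of chromosome 3, and less the local median its log2 fold change was -0.06, without a call (edgeR adjusted p = 0.566). The related Arnt2 rose 1.59-fold. Of 10 HIF partners and sensors outside the members 9 were tested, 1 rose and 1 fell (22.2%, against 33.9% of all tested genes). Vhl, Egln2 and Hif1an did not pass.

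The 2 oxygen sensor genes among the members moved apart. Egln1, which encodes the main HIF prolyl hydroxylase PHD2, had 85.1, 86.6 and 89.8 CPM in MOSE-NEO and 119, 112 and 109 CPM in MOSE-PAX8, a narrow spread with no overlap (1.3-fold higher, edgeR adjusted p = 0.00353). Egln3 (PHD3), itself a strong HIF target, fell 2.42-fold from 1.78, 3.83 and 2.69 CPM to 1.09, 1.29 and 1.02 CPM (edgeR adjusted p = 0.0127, or 0.0505 without MOSE-PAX8 replicate 3). Egln1 lies at chr8:124908587-124949324 and Egln3 at chr12:54178981-54203860. Egln3 varied within MOSE-NEO more than Egln1 did.

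Of the 7 other HIF targets, 2 fell, 3 did not pass and 2 were too low to test. The called share of those tested was 40%, near the 33.9% of all tested genes. Both that fell encode catalytic subunits of collagen prolyl 4-hydroxylase, the enzyme that stabilises the collagen helix. P4ha1 had 225, 219 and 245 CPM in MOSE-NEO and 203, 158 and 170.4 CPM in MOSE-PAX8 (1.3-fold lower, edgeR adjusted p = 0.0241). P4ha2 had 33.9, 30.7 and 40.9 CPM against 18.7, 16.9 and 18.9 CPM, a 1.94-fold fall with no overlap that kept its call in all 16 alternative settings (edgeR adjusted p = 0.000435). The P4ha1 call ended on removing the local median (0.188) or both lincRNA-rich libraries (0.0829), and on leaving out MOSE-NEO 3 (0.071) or MOSE-PAX8 2 or 3 (0.0611 and 0.0953). The genes lie at chr10:59323296-59373304 and chr11:54100095-54131665. Their stretches, shown because these genes fell and carry both motif forms, are chr10:59323146-59323295, plus strand and chr11:54100774-54100923, plus strand.
P4ha1: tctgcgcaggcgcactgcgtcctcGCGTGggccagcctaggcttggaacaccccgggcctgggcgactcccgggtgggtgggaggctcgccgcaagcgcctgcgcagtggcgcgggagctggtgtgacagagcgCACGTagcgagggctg
P4ha2: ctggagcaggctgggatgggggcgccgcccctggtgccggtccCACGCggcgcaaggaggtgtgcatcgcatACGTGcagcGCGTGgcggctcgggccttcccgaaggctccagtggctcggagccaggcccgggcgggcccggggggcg
In these stretches P4ha1 held 1 ACGTG and 1 GCGTG, and P4ha2 1 ACGTG and 2 GCGTG. The whole windows held 1 ACGTG and 2 GCGTG for P4ha1, and 2 ACGTG and 2 GCGTG for P4ha2.

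Car9, carbonic anhydrase 9, a widely used marker of hypoxia, was low in both lines. Its counts were 23, 14 and 15 for MOSE-NEO and 12, 13 and 9 for MOSE-PAX8; in CPM the lines did not overlap, but the test was not passed (log2 fold change -0.85 ± 0.33 SE, edgeR adjusted p = 0.0818). Ndrg1, a stress-induced growth suppressor, had 75.9 ± 13.7 and 83.4 ± 6.61 CPM (SD, n = 3), and Ankrd37, an ankyrin repeat gene, at most 0.524 CPM. Bnip3, a mitochondrial autophagy receptor, summed to 2 counts over MOSE-NEO and 3 over MOSE-PAX8, with 37.6% of its words found in no other gene. Adm, which encodes the vasodilator peptide adrenomedullin, had 0 counts in every library, and none of its words recurred in another gene.

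Further hypoxia-induced genes outside the members moved both ways. Of 36 such genes 29 were tested, 7 rose and 7 fell, with a median log2 fold change of -0.05. Together 48.3% were called, against 33.9% of all tested genes, of which 17.9% were higher and 16.1% lower. Stc2, a secreted glycoprotein gene, rose 5.96-fold and Bhlhe40, a transcriptional repressor gene of the circadian clock, 1.98-fold. Ddit4, an inhibitor of mTORC1 signalling, fell 1.62-fold from 73.3 ± 2.23 to 45.2 ± 2.61 CPM (SD, n = 3). The mitophagy receptor gene Bnip3l and the disulphide oxidase gene Ero1l fell 1.34-fold and 1.45-fold, and both lie on chromosome 14. With the local median removed their log2 fold changes were 0.0428 and -0.10, without a call (edgeR adjusted p = 0.799 and 0.606). Over the 4 further lists 60 of 75 genes were tested, of which 12 rose and 11 fell (38.3%, against 33.9% of all tested genes).

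Ratios between genes of the same step, taken within a library, do not depend on the scaling between libraries. Their size does depend on the merged exon lengths, which exceed the principal transcript unevenly (Hk1 8532 against 3851 bases, Hk2 5969 against 5513). The ratio of Ldhb to Ldha in counts per kb was 12.6, 11.3 and 14.5 in MOSE-NEO and 7.45, 6.58 and 5.77 in MOSE-PAX8, so Ldhb stayed the more abundant but by 1.94-fold less. The ratio of Pfkm to Pfkl went from 4.46 ± 0.667 to 2.93 ± 0.12, that of Hk2 to Hk1 from 2.54 ± 0.52 to 1.84 ± 0.156, and that of Egln3 to Egln1 from 0.0428 ± 0.0158 to 0.0135 ± 0.00175 (SD, n = 3). The ratio of P4ha2 to P4ha1 went from 0.101 ± 0.00885 to 0.0681 ± 0.00647 (SD, n = 3). The ratio of Eno2 to Eno1 is uncertain because most words of Eno1 are shared. Of 12 ratios and shares compared, 10 had no overlap between the lines. The matching share over ratios of all genes was not computed. For single genes, the lines did not overlap for 47.6% of all tested genes. The 12 are not independent, as Pfkl enters more than 1 ratio and the 3 kinase shares are parts of 1 sum. Most also contain called members. The exact two-sided permutation test cannot go below p = 0.1 with 3 libraries against 3. The 10 without overlap reached that value (0.12 after Benjamini-Hochberg adjustment over the 12). The ratio of Slc2a3 to Slc2a1 and the Pdk2 share overlapped (exact permutation p = 0.2 for each).

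**Figure D4:**
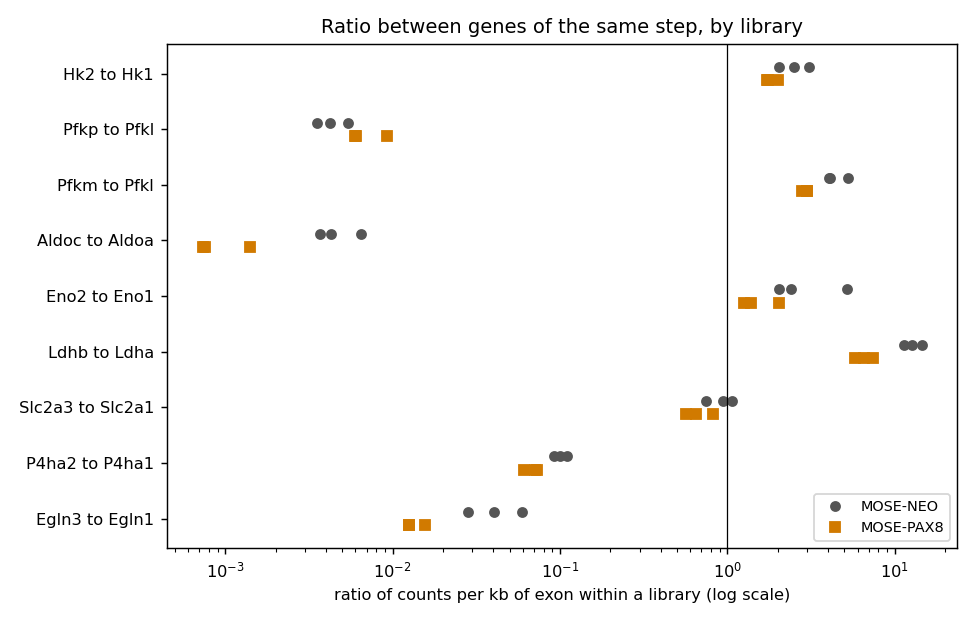
Ratio of counts per kb of exon between genes of the same step (x axis, log scale) in each library, for 9 pairs (y axis); circles are MOSE-NEO and squares MOSE-PAX8, 3 libraries each, and the line marks a ratio of 1. The lines overlap only for Slc2a3 to Slc2a1, and Ldhb to Ldha moves from 11.3 or more to 7.45 or less.

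HIF core motifs were found before the starts of genes that rose and of genes that fell. In the RefSeq promoter table on GRCm38.p6, 32 of the 35 genes were matched, with 46 windows of 250 bases before to 50 after a start. ACGTG or GCGTG was found on either strand in 38 of the 46 windows (82.6%), against 43.8% of all 32851 windows, and ACGTG alone in 56.5% against 19.6%. These windows were also richer in G and C, with a median of 62.8% against 52.7%, and the part of base composition in the motif counts was not tested. Windows of one gene can overlap, and both motifs are short, so a match is no more than a description of the letters. ACGTG was found in at least 1 window of 6 of the 8 genes that rose, 6 of the 8 that fell and 10 of the 14 with a window that did not pass. Pfkp and Pfkl, which rose, and Pdk1 and Ldhb, which fell, had GCGTG but no ACGTG in any window.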

How the data were processed

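Raw read counts per gene, 1 deposited table for each of 6 libraries, were used as the authors deposited them. The submitters' processing notes list cutadapt 1.13, STAR, HTSeq 0.6.1p1, DESeq2 and the mm10 build. How strand and multiply aligned reads were handled, and with which annotation, is not given in the sources used here, so overlapping and antisense genes are uncertain. Groups and replicate numbers came from the sample titles. No label states separate cultures for the 3 libraries of a line; p-values therefore reflect the spread among these libraries alone, which may be technical.

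Symbols, coordinates and merged exon lengths came from GENCODE M21 on mm10, which held 24991 of the 25006 identifiers. MOSE-PAX8 was compared with MOSE-NEO with edgeR 4.0.16 (R 4.3.3), using its quasi-likelihood test, TMM factors, filterByExpr and Benjamini-Hochberg adjustment over all 12313 tested genes. Each standard error is the estimate divided by the root of its F statistic, and fold changes are higher in MOSE-PAX8 when positive. The local chromosome median is the running median log2 fold change of 101 neighbouring tested genes. Every member is reported, and of the further lists up to 3 called genes per direction with at least 5 CPM, taking the largest changes; 1 gene that this rule names is not reported here. The members and lists were chosen with earlier results of these data known. A principal transcript is the longest protein-coding one with the best APPRIS tag. The search for shared words used annotated transcripts in place of a genome. The fit was tested on simulated data. Alternatives were DESeq2 1.42.0, limma-voom (limma 3.58.1), other factors and filters, a replicate block, libraries left out, the local median and a fold of 1.5.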

Additional observations from a re-analysis of the deposited data

How the results depend on the processing

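Of the 16 called members, Hk1, Aldoc, Pdk1 and P4ha2 kept their calls in all 16 alternative settings. Another 4 (Egln1, Pfkl, Pdk2 and Pdk3) lost theirs in the test against a fold of 1.5 alone. That test called 1 member higher and 3 lower, and 700 and 370 genes in all. With the local chromosome median removed 5 members were called higher. With a library left out in turn, 4 to 9 members were called higher and 5 to 8 lower, and 1545 to 2065 and 1314 to 1843 of all genes. The cause was not tested. Bnip3l reversed to a log2 fold change of 0.0428 with the local median removed, as its setting subtracts the median of its neighbours. Without length, the log2 difference of the Pdk3 share was 0.10, since Pdk3 has the shortest exons of the 3 kinases.

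With the replicate number as a block, 7 members were called higher and 8 lower, and 2070 and 1863 genes in all; Pfkp was the member that lost its call. Deviations of same-numbered libraries correlated at -0.47, 0.05 and 0.40 for numbers 1 to 3. MOSE-NEO 1 correlated best with MOSE-PAX8 2 (0.63), and both are lincRNA-rich. With 3 libraries a line these correlations cannot decide whether a number marks a shared culture or day. Epas1, Bnip3 and Adm had 0 to 2 counts per library, too few to test at this depth, and the part of shared sequence in the count of Bnip3 was not tested. Low counts go with wide errors for Slc16a3, Pfkfb4 and Ankrd37 (SE of 0.43, 0.51 and 0.36 on the log2 scale).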
